A study of Mus musculus with 30 samples.

Results

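The G2/M fraction of proliferating C2C12 cells was compared with the G1 fraction, gene by gene, in RNA-seq counts. C2C12 is an established line of mouse myoblasts, the dividing precursors of skeletal muscle. The cells were kept growing in medium with 20% serum, detached, stained for 15 min with a Hoechst DNA dye and sorted by DNA content, so both groups shared line, medium, stain and sorter and differed in the sort gate. Of the 30 samples of the series, 4 entered the comparison, as 2 count columns for G1 and 2 for G2/M. The columns of a phase were summed, and a gene entered when its level reached 10 CPM (fragments per 1000000 fragments assigned to genes) in at least 1 of the 2 phases. This kept 8850 of the 46078 genes in the table, of which 14707 had at least 1 fragment in G1, S or G2/M.

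The columns held between 16109055 and 18103769 fragments, and the sums came to 32395232 in G1 and 35907974 in G2/M. Between the columns of a phase the counts varied about as much as random sampling gives. The chi-square value divided by its degrees of freedom was 1.00 in G1 and 1.15 in G2/M, and the latter fell to 1.04 without the predicted gene Gm17082, with 1920 and 258 fragments in the G2/M columns. The columns of a phase therefore counted as 1 library, every difference below has no replicate check, and no p-value was computed. The intervals given are exact 95% binomial intervals of a gene's fragments between both phases and cover counting error only. A gene was called at a difference of 2-fold or more. The S fraction is quoted beside some genes as a value and enters no comparison. Markers of muscle precursors, among them Myf5, Des, Cdh15 and Itga7, passed the level filter for 9 of 12 genes and summed to 1468 CPM in G1 and 1630 CPM in G2/M. Of the other 3, Myod1 lay below the filter with 213 and 208 fragments, Musk had 62 and 0, and Pax7 had 0 and 119. Of 4 endothelial and 4 leukocyte markers 0 passed the filter, and 3 of the leukocyte genes were at 0 in both phases. Among other lineages, 1 of 5 epithelial genes (Krt14, 325.6 CPM in G1 and 232.6 CPM in G2/M), 1 of 5 adipocyte genes (Pparg), 2 of 6 bone and cartilage genes (Runx2, Sox9) and 2 of 4 neural genes (Tubb3, Map2) passed it. The other 4 epithelial genes, 3 adipocyte, 3 bone and cartilage and 2 neural genes were at 0 in both phases. The defining genes of differentiating muscle, such as Myog, Myh3 and Ckm, passed for 0 of 7 and summed to 11.6 CPM in G1 and 11.2 CPM in G2/M.

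A dividing cell transcribes its genes in waves. The E2F factors switch on genes for DNA synthesis as the cell leaves G1. Genes for mitosis follow in G2, when the MuvB complex works with B-Myb and then FOXM1 at promoters that carry a CHR element, often together with CCAAT boxes bound by NF-Y. During mitosis and into G1, the anaphase-promoting complex marks mitotic proteins for destruction. The DREAM and RB complexes hold the mitotic and the replication genes down in G1. Myoblasts must leave this cycle before they can fuse into muscle fibres. The values below are shares of the sequenced fragments assigned to genes, so a change in total RNA per cell is not seen, and in a sorted fraction fewer cells that express a gene and less RNA per cell cannot be told apart.

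Genes of the mitosis lists were mostly higher in G2/M and genes of the DNA synthesis lists mostly lower, as counted by role below. At the 10 CPM filter, 888 genes passed 2-fold upward (10% of those measured) and 868 downward (9.81%), 1756 in all (19.8%). Most of these averaged under 50 CPM, with 728 higher and 754 lower. Genes averaging under 10 CPM pass the filter only through their higher phase, which favours genes that differ. Of the 4221 genes whose G1 and G2/M levels averaged 50 CPM or more, 160 were 2-fold higher (3.79%) and 114 lower (2.70%), 274 in all (6.49%). A difference of 4-fold or more was more often upward at this level, with 30 genes higher and 7 lower. The median log2 ratio of G2/M to G1 over all 8850 genes was -0.00.

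**Figure D1:**
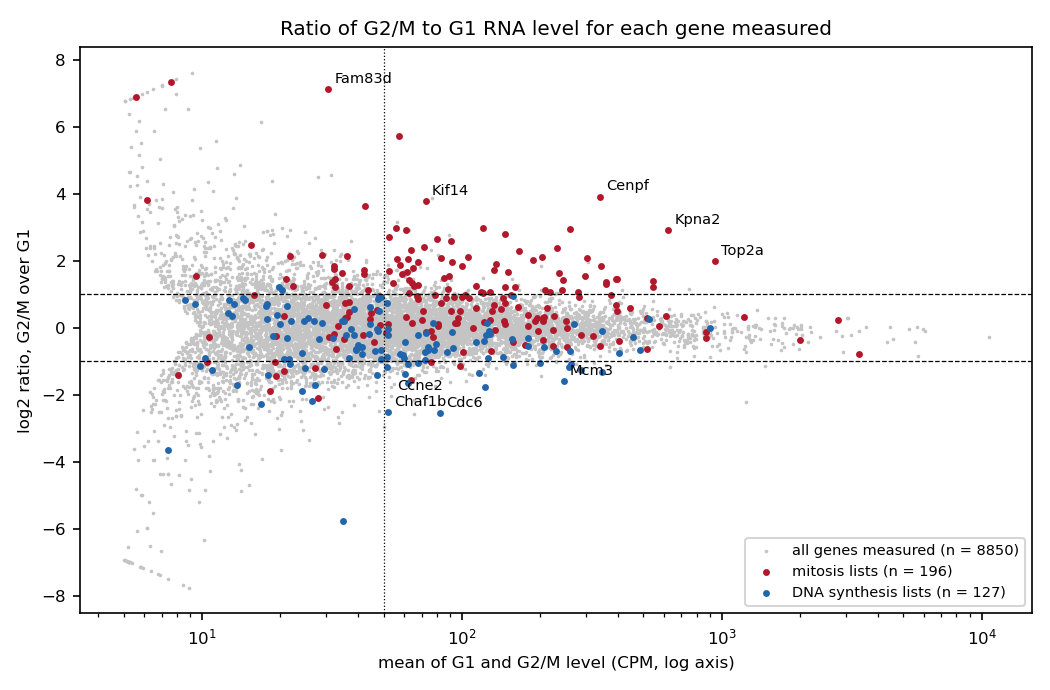
The log2 ratio of G2/M to G1 (vertical axis) is plotted against the mean level of each gene in CPM (horizontal log axis) for the 8850 genes measured, with genes of the mitosis and DNA synthesis lists in colour. The mitosis genes reach the highest ratios at levels of 50 CPM and above, such as 3.91 for Cenpf, and the DNA synthesis genes lie mostly below 0.

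The mitotic cyclins, kinases and phosphatases were mostly higher in G2/M. Of 25 genes, 16 were at least 2-fold higher, 1 was at least 2-fold lower, and the median log2 ratio was 1.37. Ccnb1 encodes cyclin B1, the activator of the mitotic kinase CDK1, and lies at chr13:100778650-100786570 on the minus strand (GRCm38). It measured 74.33 and 74.26 CPM in the G1 columns and 397.7 and 382.9 CPM in the G2/M columns. Its G2/M level was 5.25 times that in G1 (log2 ratio 2.39, interval 2.33 to 2.46), with 242.4 CPM in the S fraction. Plk1, the Polo-like kinase of centrosome maturation and mitotic entry, measured 60.3 and 63.8 CPM in G1 and 201.7 and 207.7 CPM in G2/M. That is a 3.30-fold higher level (log2 ratio 1.72, interval 1.65 to 1.79). Cdk1 itself was at 133.4 CPM in G1 and 357.1 CPM in G2/M (log2 ratio 1.42), and Ccna2, cyclin A2, was at 151.7 and 444.8 CPM (1.55). Larger ratios belonged to Ccnf, a cyclin-like F-box protein (2.99), to the spindle kinase gene Aurka (2.60) and to Cdc25b, a phosphatase that activates CDK1 (2.104). Cks2, a CDK-binding subunit, followed with 1.87.

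The anaphase-promoting complex had members on both sides. Its list of 21 genes had 5 called higher (23.8%) and 3 called lower (14.3%), beside 10% and 9.81% of all genes measured. The median log2 ratio was 0.18. Ube2c, its ubiquitin-conjugating enzyme, measured 13.9 and 14.5 CPM in G1 against 108.9 and 107.4 CPM in G2/M, 7.62-fold higher. Fzr1, which encodes the late activator CDH1, was at 21.2 and 106.4 CPM (log2 ratio 2.32), and Espl1, the separase that cuts cohesin, had a ratio of 1.78. Cdc20, the early activator, measured 104.2 CPM in G1 and 205.2 CPM in G2/M, with 89.9 CPM in the S fraction. Its ratio of 0.98 lay just below the 2-fold line. Of the core subunits at this level, Cdc23 was higher (1.27) and Cdc16 lower (-1.03).

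Kinetochore, spindle checkpoint and chromosomal passenger genes were mostly higher in G2/M. Of 44 measured members, 20 were at least 2-fold higher and 5 lower, with a median of 0.75. At an average of 50 CPM or more the count was 15 higher and 0 lower of 25, with a median of 1.07. Cenpf, a large kinetochore protein encoded at chr1:189640606-189688086 on the minus strand (GRCm38), measured 45.0 and 39.7 CPM in G1 and 639.2 and 638.3 CPM in G2/M, 15.1-fold higher. The kinetochore motor gene Cenpe was at 59.9 CPM in G1 and 461.2 CPM in G2/M (2.95). Sgo1, the protector of centromeric cohesion, had a ratio of 2.70 and Incenp, the scaffold of the passenger complex, one of 2.11. Trip13, which takes apart checkpoint complexes, was the member furthest below 0 at this level (-0.71).

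Spindle motors and spindle proteins were the list with the largest share called higher, 24 of 31 with 0 lower, with a median of 1.42. Kif14, a kinesin of the central spindle, measured 9.97 and 9.68 CPM in G1 and 138.0 and 132.8 CPM in G2/M, 13.8-fold higher. Kif11, the kinesin that pushes spindle poles apart, went from 36.6 to 255.4 CPM (2.80). Nusap1 (2.64) and Kif18b (2.42), both microtubule-binding proteins, followed. The importin gene Kpna2, a carrier of nuclear cargo, measured 140.8 and 149.0 CPM in G1 and 1094 and 1102 CPM in G2/M, 7.58-fold higher. The ratio of the kinesin gene Kifc5b (2.92), outside the list, is uncertain, since it has a near-identical copy, Kifc1 (1.13), and reads may have been split between them.

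Cytokinesis and central spindle genes had 10 of 20 members called higher and 0 called lower, with a median of 1.03 (0.78 for the 16 at a mean of 50 CPM or more). Aspm, a protein of the spindle poles, measured 27.03 and 27.17 CPM in G1 and 212.7 and 217.0 CPM in G2/M, 7.93-fold higher. Prc1, which bundles the central spindle, was at 116.1 CPM in G1 and 489.7 CPM in G2/M (log2 ratio 2.08). Arhgap11a (1.86), Cep55 (1.66) and Iqgap3 (1.62) also passed 2-fold, while Rhoa, the GTPase that drives the contractile ring, was slightly lower (-0.31). Outside the list, Gas2l3, a linker of actin and microtubules at the division plane, was at 22.6 and 155.3 CPM (2.78).

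Condensin, cohesin and chromosome structure genes were mostly higher as well. Of 27 members 23 were higher in G2/M, 8 of them at least 2-fold, 0 were 2-fold lower, and the median was 0.68. Top2a, the topoisomerase that untangles sister chromosomes, measured 374.0 and 377.8 CPM in G1 and 1498 and 1503 CPM in G2/M, 3.99-fold higher (interval of the log2 ratio 1.97 to 2.03). Cdca2 (1.95), Mki67, the surface coat of mitotic chromosomes (1.45), the condensin subunit Smc4 (1.39) and the kinesin Kif22 (1.34) were next.

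Tubulins and nuclear envelope genes had medians near 0. Of 10 measured tubulins, all at an average of 50 CPM or more, 1 was called higher (10%, beside 3.79% of all genes at that level). It was Tuba1c with 324.0 CPM in G1 and 759.5 CPM in G2/M (1.23), and the median of the list was 0.03. Tuba1a was lower, at 4244 and 2490 CPM (-0.77). The 14 lamina and envelope genes had 1 called in each direction, Syne2 (1.96) and Sun1 (-1.14), both part of the link between nucleus and cytoskeleton. Their median was 0.15 (-0.0049 for the 11 at an average of 50 CPM or more). Of those 11, 9.1% were called in each direction, beside 3.79% higher and 2.70% lower over all genes at that level. Among 5 measured FOXM1, B-Myb and MuvB regulators, Foxm1 was at 67.4 CPM in G1 and 159.7 CPM in G2/M (1.25), Lin54, the MuvB subunit that binds the CHR, was at 17.5 and 47.6 CPM (1.45), and Mybl2, which encodes B-Myb, was lower at 95.04 and 32.5 CPM (-1.55).

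All mitosis lists together held 196 measured genes. Of these 153 were higher and 43 lower, 86 were called higher (43.9%) and 11 lower, and the median was 0.87. At an average of 50 CPM or more, 64 of 145 were called higher (44.1%, against 3.79% of all genes at that level) and 3 lower. These 64 made up 40% of the 160 genes called higher there.

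**Figure D2:**
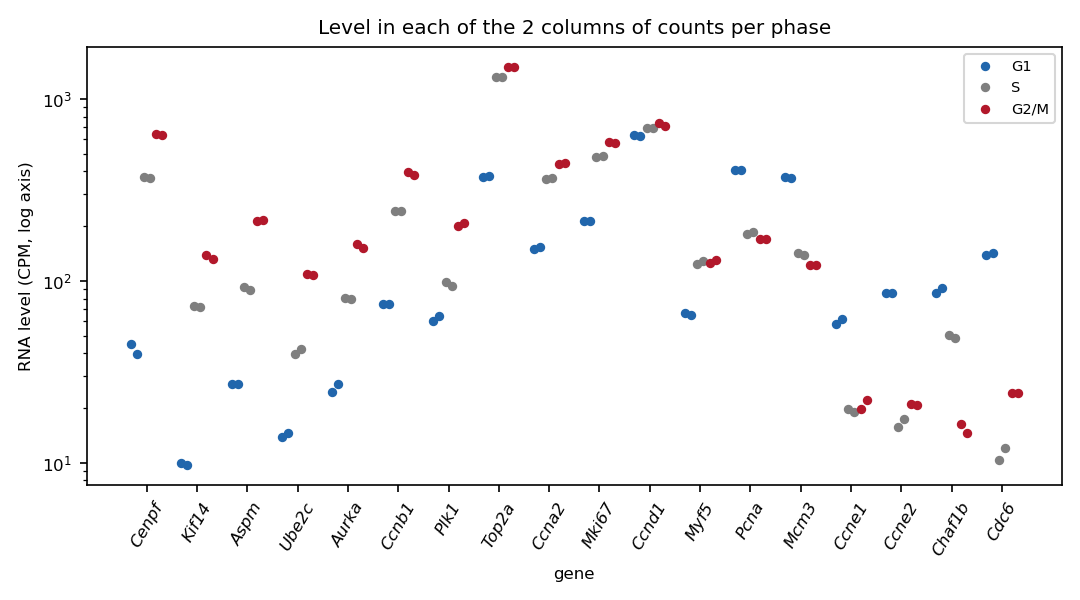
Levels in CPM (log axis) of genes of mitosis and of DNA synthesis are plotted for each count column of G1, S and G2/M, 1 point per column. The columns of a phase nearly coincide, Ccnb1, Plk1 and Cenpf lie higher in G2/M than in G1, and Cdc6, Mcm3 and Pcna lie lower.

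Genes of DNA synthesis were mostly lower in G2/M. Their lists held 127 measured genes, of which 90 were lower and 37 higher in G2/M, 30 were called lower (23.6%) and 2 higher, and the median log2 ratio was -0.50. At an average of 50 CPM or more, 16 of 58 were called lower (27.6%, against 2.70% of all genes at that level) and 0 higher. These 16 made up 14.0% of the 114 genes called lower there.

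Origin licensing and firing genes had 9 of 29 members called lower and 0 called higher, with a median of -0.56 (-0.89 for the 15 at a mean of 50 CPM or more). Cdc6 loads the replicative helicase onto origins and lies at chr11:98907801-98923940 on the plus strand (GRCm38). It measured 138.9 and 141.7 CPM in the G1 columns and 24.24 and 24.17 CPM in the G2/M columns. It was 5.80-fold lower in G2/M (log2 ratio -2.54, interval -2.64 to -2.43) and stood at 11.2 CPM in the S fraction. The helicase subunit Mcm3 measured 372.6 and 369.4 CPM in G1 against 122.4 and 122.7 CPM in G2/M, 3.03-fold lower. The other helicase subunits were also lower, with log2 ratios of -1.31 for Mcm4, -1.11 for Mcm2, -1.09 for Mcm6, -1.04 for Mcm5 and -0.58 for Mcm7, the last under 2-fold. Cdt1, the partner of CDC6 in loading, had a ratio of -0.66, and its inhibitor Gmnn one of -0.04 with an interval of -0.14 to 0.06. Dbf4, the activator of the origin-firing kinase, ran the other way, at 107.6 CPM in G1 and 208.2 CPM in G2/M (0.95).

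Polymerases, the sliding clamp, RPA and fork proteins had 6 of 33 members called lower and 2 higher, with a median of -0.58. The clamp gene Pcna measured 407.3 and 407.8 CPM in G1 and 169.6 and 170.3 CPM in G2/M, 2.40-fold lower. Wdhd1, a fork scaffold (-1.36), and Atad5, which unloads the clamp (-1.04), also passed 2-fold, and the checkpoint adaptor Clspn did not (-0.88). Of 14 deoxynucleotide supply genes 2 were called lower, and the median was -0.41. The salvage kinase gene Dck had 94.2 CPM in G1 and 30.1 CPM in G2/M (-1.64), while Tk1 (-0.73) and Tyms (-0.65) were lower by less than 2-fold. Rrm2, the small subunit of ribonucleotide reductase, was level at 900.3 and 901.9 CPM, with an interval of -0.02 to 0.03 on the log2 scale.

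Chromatin assembly and DNA methylation genes that act at forks had 3 of 16 called lower and 0 higher (median -0.63). Chaf1b, a subunit of the histone chaperone CAF-1, measured 85.7 and 91.0 CPM in G1 and 16.3 and 14.6 CPM in G2/M, 5.71-fold lower, whereas its partner Chaf1a had a ratio of -0.23. Uhrf1 (-1.16), which brings the maintenance methyltransferase to new DNA, and Cdca7 (-1.17) were also called. DNA repair and damage checkpoint genes had 10 of 35 called lower and 0 higher (median -0.31), and only 4 had a mean of 50 CPM or more. The mismatch repair gene Msh6 went from 189.9 to 55.8 CPM (-1.77) and the checkpoint kinase gene Chek1 from 87.7 to 33.5 CPM (-1.39). The member furthest from 0 at any level was Ung, the glycosylase that removes uracil from DNA, with 68.8 CPM in G1 and 1.27 CPM in G2/M (-5.76).

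Genes of entry into S phase, activators and inhibitors together, were called higher about as often as all genes and called lower more often. Of 29 G1 and S cyclins, CDK inhibitors, E2F and pocket proteins, 9 were called lower (31.0%, beside 9.81% of all genes measured). Called higher were 3 (10.3%, beside 10%), and the median was 0.07. Ccne2, cyclin E2, an activator of CDK2, measured 85.4 and 85.8 CPM in G1 and 21.0 and 20.7 CPM in G2/M, 4.11-fold lower, and stood at 16.6 CPM in S. Ccne1 (-1.52), the activator gene E2f1 (-1.37), Cdk2 (-1.17) and the CDK inhibitor gene Cdkn1a (-1.05) were lower as well. The E2F repressor gene E2f8 was higher, at 40.3 CPM in G1 and 89.8 CPM in G2/M (1.16). Ccnd1, cyclin D1, the link from growth factors to the cycle, was at 631.0 and 726.4 CPM (0.20).

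**Figure D3:**
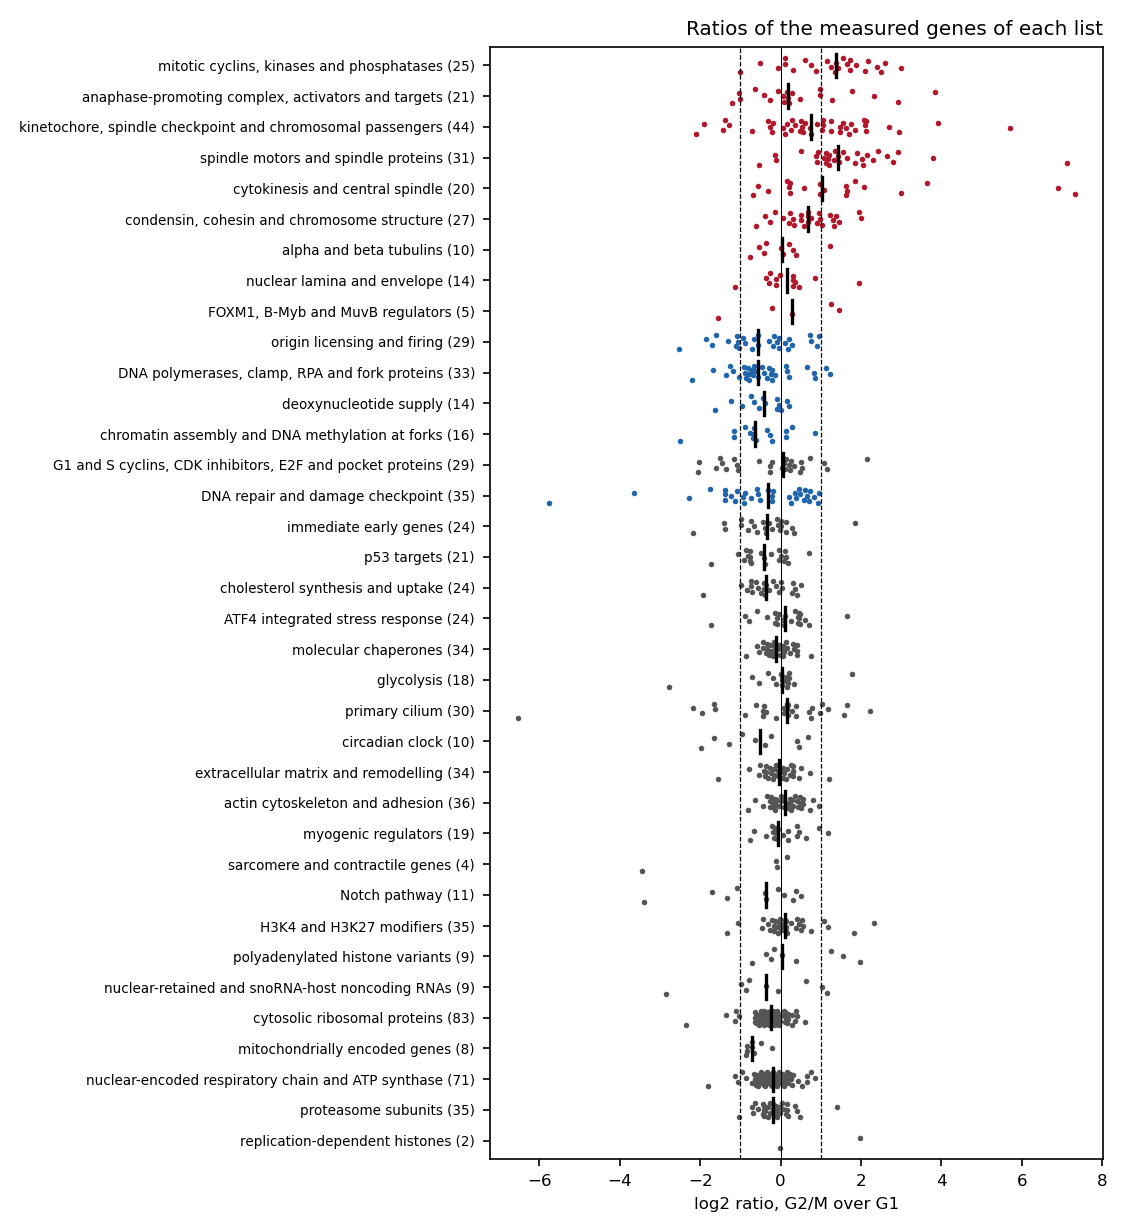
Each row is a gene list and each point a measured member at its log2 ratio of G2/M to G1 (horizontal axis), with the list's median marked. Lists of mitosis have medians up to 1.42 for the spindle motors, and the 5 lists of DNA synthesis have medians between -0.63 and -0.31.

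Promoter sequence was set beside these ratios, since the known binding elements of both gene waves lie near the transcription start. Windows of 300 bases, from 250 before to 50 after the RefSeq start (GRCm38.p6), were matched to 7004 of the 8850 genes. The promoters of 3 mitotic genes and of Cdc6 are shown 5′ to 3′ on the gene's strand to let the elements be compared between a higher and a lower gene. Capitals mark exact matches, on either strand, to a CHR (TTTGAA), to a CCAAT box, searched as the letters of its name, or to an E2F site (TTTGGCGC, TTTCCCGC, TTTGCCGC or TTTCGCGC). The windows are Ccnb1 at chr13:100786437-100786736 (minus strand), Plk1 at chr7:122159185-122159484 (plus), Cdc20 at chr4:118437294-118437593 (minus) and Cdc6 at chr11:98907901-98908200 (plus).
Ccnb1: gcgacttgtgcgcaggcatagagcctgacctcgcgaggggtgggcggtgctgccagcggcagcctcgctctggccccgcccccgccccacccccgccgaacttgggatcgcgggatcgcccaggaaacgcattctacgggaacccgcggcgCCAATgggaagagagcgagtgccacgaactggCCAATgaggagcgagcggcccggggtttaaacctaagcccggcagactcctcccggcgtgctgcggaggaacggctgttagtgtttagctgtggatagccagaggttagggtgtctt
Plk1: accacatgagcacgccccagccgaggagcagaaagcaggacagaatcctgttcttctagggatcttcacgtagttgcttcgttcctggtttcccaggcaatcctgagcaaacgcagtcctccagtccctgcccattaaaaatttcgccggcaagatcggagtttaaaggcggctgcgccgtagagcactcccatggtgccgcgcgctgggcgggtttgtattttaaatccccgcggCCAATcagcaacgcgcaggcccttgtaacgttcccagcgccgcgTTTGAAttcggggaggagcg
Cdc20: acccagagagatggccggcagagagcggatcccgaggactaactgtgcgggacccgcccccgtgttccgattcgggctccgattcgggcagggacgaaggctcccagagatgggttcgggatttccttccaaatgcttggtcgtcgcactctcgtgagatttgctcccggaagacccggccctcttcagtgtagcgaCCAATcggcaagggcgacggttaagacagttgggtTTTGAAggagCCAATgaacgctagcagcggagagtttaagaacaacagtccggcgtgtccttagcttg
Cdc6: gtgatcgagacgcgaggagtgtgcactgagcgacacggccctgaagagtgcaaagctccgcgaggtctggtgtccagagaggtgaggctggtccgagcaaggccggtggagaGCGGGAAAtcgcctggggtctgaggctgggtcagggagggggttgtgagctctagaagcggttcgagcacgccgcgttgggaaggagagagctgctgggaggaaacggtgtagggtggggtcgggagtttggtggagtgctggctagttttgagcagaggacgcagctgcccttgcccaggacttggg
The Ccnb1 window holds CCAAT boxes starting at -99 and -67 relative to the RefSeq start and no CHR letters. Plk1 has a CCAAT box at -14 and a CHR at 30. Cdc20 has CCAAT boxes at -53 and -8 with a CHR between them at -18. The Cdc6 window holds an E2F match on the opposite strand (GCGGGAAA as printed) at -138, and neither CHR nor CCAAT. The RefSeq start of Cdc6 lies 350 bases inside the gene as the count table bounds it, and those of the other genes lie within 84 bases of that bound.

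The share of promoters with a CHR was highest in mitotic genes that were called higher. It was 67.6% (48 of 71) for mitosis-list genes called higher, 24.7% (23 of 93) for the other mitosis-list genes and 11.3% (789 of 7004) over all measured promoters. Among all genes called higher at an average of 50 CPM or more, 43.7% (55 of 126) had a CHR, against 11.98% of all genes at that level and 11.1% (9 of 81) of those called lower. Outside the mitosis lists the share among genes called higher at that level was 22.2% (16 of 72). At the 10 CPM filter alone it was 16.9% (116 of 686). CHR matches in mitosis-list promoters lay mostly near the start, with a median position of -14.5 and 80.2% of 86 matches between 100 bases before and 50 after it. Other motifs in these promoters also gathered there, with 71.8% of 206 CCAAT matches and 70.6% of 17 E2F matches in that stretch. Of 10 TATA matches 50% lay in it.

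CCAAT boxes were common throughout, in 38.8% of measured promoters, and stood in 76.1% (54 of 71) of mitosis-list genes called higher. They were also in 50.5% (47 of 93) of the other mitosis-list genes and in 56% (56 of 100) of the DNA synthesis lists. Outside the mitosis lists, genes called higher at an average of 50 CPM or more had 43.1% (31 of 72). E2F sites occurred in 16.05% (13 of 81) of genes called lower at an average of 50 CPM or more, in 7.1% (9 of 126) of those called higher, in 5.0% of all genes at that level and in 27% (27 of 100) of the DNA synthesis lists. The mitosis lists had 9.1% (15 of 164). At the 10 CPM filter the shares were 5.9% of genes called lower, 4.2% of genes called higher and 4.7% of all measured promoters. At an average of 50 CPM or more, the TATA box (TATAAA) was found in 3.2% (4 of 126) of genes called higher. It was in 3.7% (3 of 81) of those called lower and in 6.1% of all at that level. At the 10 CPM filter its shares were 5.2% of genes called higher, 4.7% of genes called lower and 6.2% of all. No motif contains another, matches of different motifs may overlap in a window, and a match describes letters, not binding.

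**Figure D4:**
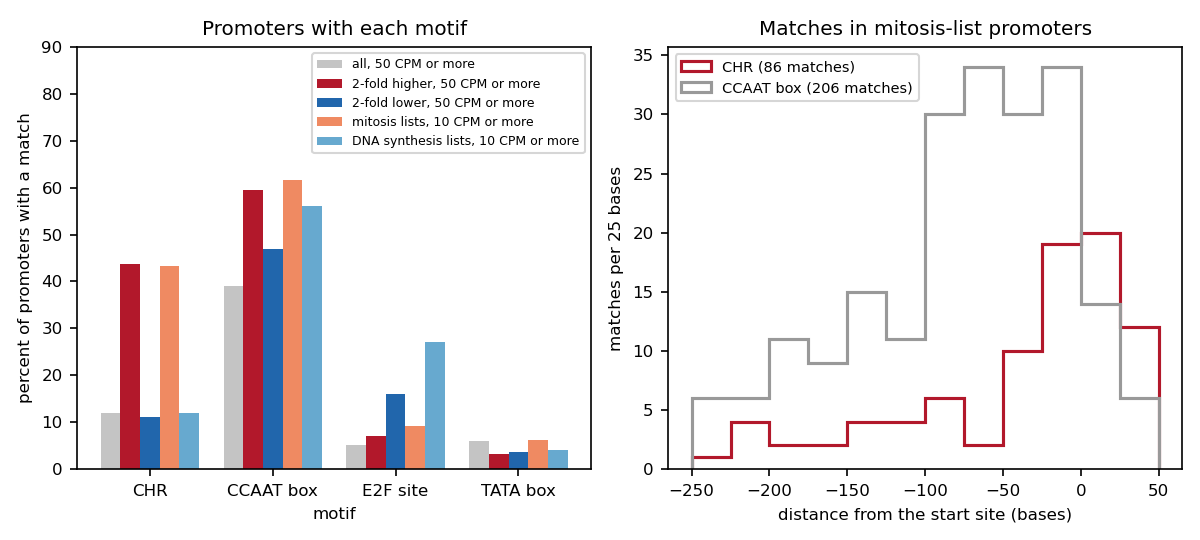
Bars in the left panel give the percent of 300-base promoters with at least 1 match to each motif, by gene group, with the axis starting at 0. The right panel counts CHR and CCAAT matches in mitosis-list promoters by distance from the start in bases. CHR matches stand in 43.7% of genes called higher and 11.98% of all genes at 50 CPM or more, and E2F matches in 27% of the DNA synthesis lists.

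The largest ratios at any level belonged to genes that were close to absent from 1 phase. Higher in G2/M were Xdh, xanthine dehydrogenase, with 0 fragments in G1 and 663 in G2/M, Akap17b with 0 and 579, and Fam83d, a spindle-associated protein, with 14 and 2211. Sapcd2 (3 and 548), Rabep2 (1 and 510) and Zmat1 (2 and 469) completed the 6. Since 3 fragments served as the floor, the log2 ratios of Xdh and Akap17b against it, 7.61 and 7.41, have no upper limit, and their counting intervals start at 7.31 and 7.11. Lower in G2/M were Ifi203 (570 fragments in G1 and 0 in G2/M), Zfp764 (433 and 0), Wnt4, a secreted signal (541 and 1), Plekhg4 (474 and 2), Thap3 (441 and 2) and the transcription factor gene Lhx9 (378 and 2). At an average of 50 CPM or more, further low ratios among genes with names of their own included that of Wdr76, which binds damaged and methylated DNA. It was at 111.8 and 18.97 CPM (-2.56). The deubiquitinase gene Usp37 (-2.15), the ubiquitin ligase gene Trim39 (-1.75) and the growth factor gene Tgfb1 (-1.73) were also among them. So were the peptide-loading gene Tapbp (-1.68) and Dtl, the adaptor that destroys CDT1 (-1.60). Tgfb1 measured 119.6 and 122.2 CPM in G1 and 37.8 and 34.9 CPM in G2/M. Rnaset2a had a ratio of -2.95, which is uncertain because a near-identical paralog shares its reads.

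Lists of growth and stress genes had medians between -0.51 and 0.16. Their counts stand beside 10% called higher and 9.81% called lower over all genes measured, with larger shares among genes of low level. Immediate early genes had 1 of 24 called higher and 3 lower (median -0.33), and at a mean of 50 CPM or more 0 of 12 were called. Serum response factor, Srf (-0.80), and Ier5 (-0.73) were the furthest from 0 there. Of 21 p53 targets 15 were lower, 2 of them called, and 0 were called higher (median -0.42). Cholesterol synthesis and uptake genes were lower for 17 of 24 with 1 called (median -0.37). Genes of the ATF4 stress response had 1 of 24 called in each direction (median 0.10), with Psat1 at 0.60 and Wars at -0.79. Of 34 chaperones 0 were called (median -0.12). Glycolysis had 1 of 18 called in each direction (median 0.04). Primary cilium genes had 5 of 30 called in each direction (16.7%, median 0.16). Only 5 of the 30 had a mean of 50 CPM or more, and 0 of those were called. The 10 clock genes had 0 called higher and 3 lower (median -0.51).

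Most ribosomal protein genes and mitochondrial messages were lower in G2/M. Of 83 cytosolic ribosomal protein genes 69 were lower, and the median was -0.24. Of the 69, 5 were called, 6.0% of the list, beside 9.81% called lower and 10% called higher over all genes measured. Rps27 (-1.14) and Rps29 (-1.04) were the furthest down at a mean of 50 CPM or more. Rps2 was at 148.8 CPM in G1 and 224.8 CPM in G2/M (0.60), but its reads and those of Rps3a1 can be split with near-identical copies and both are uncertain. All 8 measured protein-coding genes of the mitochondrial genome were lower, 0 by 2-fold, with a median of -0.72. Its ribosomal RNA genes, outside the list, had ratios of -0.34 for mt-Rnr1 and 0.03 for mt-Rnr2. The oxidase subunit gene mt-Co1 measured 7248 and 7280 CPM in G1 and 4091 and 4051 CPM in G2/M (-0.84). Some of these genes overlap or lie opposite one another, such as mt-Nd6 (-0.87), and whether strand was used is not stated. Nuclear genes of the respiratory chain and ATP synthase had 3 of 71 called lower and 0 higher (median -0.18), and proteasome subunits 1 of 35 in each direction (median -0.19). Chromosome medians of the nuclear genome ran from -0.11 to 0.09.

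The counts of muscle, matrix and adhesion genes called stand beside 10% called higher and 9.81% called lower over all genes measured. Of 19 measured myogenic regulators, with a median of -0.07 (0.19 for the 13 at an average of 50 CPM or more), 1 was called, the transcription factor gene Mef2a (48.8 and 111.0 CPM, 1.19). Myf5, the myogenic factor of dividing myoblasts, measured 66.9 and 65.1 CPM in G1, 125.3 and 130.4 CPM in G2/M, with 126.1 CPM in the S fraction. Its ratio of 0.96 (interval 0.88 to 1.03) was 1.94-fold and missed the line. Myod1, the myogenic factor named in the title of the series, had 213 fragments in G1 and 208 in G2/M, with an interval of -0.49 to 0.07 that includes 0. Id3 (0.62), an inhibitor of these factors, and its dimer partner Tcf3 (-0.76) lay on opposite sides. Of 40 sarcomere genes only 4 were measured, 1 of them called lower. Notch pathway genes, which hold precursors undifferentiated, had 4 of 11 called lower (36.4%) and 0 higher. Their median was -0.35, or -0.21 without the second G2/M column. With no level filter beyond 3 fragments the median of the list was 0.0020. The receptor gene Notch2 was at 241.9 and 113.8 CPM (-1.09), and the ligand genes Jag1 (-1.70) and Jag2 (-1.32) were lower as well. Extracellular matrix genes had 1 of 34 called in each direction (median -0.05, or 0.06 for the 27 at an average of 50 CPM or more), and 0 of 36 actin and adhesion genes were called (median 0.12), with Vcl, vinculin, the nearest at 0.96.

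Writers and erasers of the histone marks profiled in the series had 4 of 35 called higher (11.4%) and 2 lower (5.7%). Over all genes measured the shares were 10% and 9.81%. The median of the list was 0.10, or -0.012 for the 20 at an average of 50 CPM or more. Ezh2, the H3K27 methyltransferase, was level at 200.9 and 205.8 CPM, with an interval of -0.01 to 0.08. Its recruiting partner Jarid2 was at 9.48 and 47.8 CPM (2.33), the H3K4 demethylase gene Kdm5b at 6.11 and 21.6 CPM (1.82), and the deacetylase gene Hdac1 at 172.0 and 83.0 CPM (-1.05). Polyadenylated histone variants had 3 of 9 called higher (median 0.04), among them Cenpa, the centromeric histone (1.55). Only 2 of 67 replication-dependent histone genes passed the filter. Their messages mostly lack a poly(A) tail, and the sources used here do not state the RNA selection. The variant list and the replication-dependent list had the same largest log2 ratio, 1.99, and may share that gene. Nuclear-retained and snoRNA-host RNAs had 2 of 9 called higher and 1 lower (median -0.35, or 0.29 for the 6 at an average of 50 CPM or more), with Malat1 at 461.5 and 1034 CPM (1.16) and Neat1 at 193.3 and 98.0 CPM (-0.98).

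The spread of the ratios narrowed with level. Genes averaging under 10 CPM enter only through their higher phase, which favours ratios away from 0, so they are left out of this count. Past 2-fold were 37.6% of 1516 genes at 10 to 20 CPM, 20.4% at 20 to 50 CPM, 9.22% at 50 to 100 CPM and 2.66% of 301 genes at 500 CPM or more. Between the columns of a phase, 8 of the 8850 genes in G1 and 10 in G2/M were 2-fold apart. At the filter itself, Nkain1 (9.51 CPM in G1 and 10.01 in G2/M) and Plcg2 (0.53 and 10.01) were just inside it, and Lrrn4cl (9.98 and 0.11) and Inpp5k (9.98 and 4.69) just outside.

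Ratios also moved with the summed exon length of the gene. At an average of 50 CPM or more the median was -0.15 in the shortest of 5 length classes of nearly equal number (up to 2600 bases), -0.07, -0.03 and 0.03 in the next ones and 0.19 in the longest (from 7842 bases). The mitosis lists kept higher medians in every class, at 0.30, 0.94, 0.93, 0.94 and 1.17, and the DNA synthesis lists stood at -0.80, -0.67, -0.73, -0.66 and -0.16, the first over 6 and the last over 5 genes. The 60 ribosomal protein genes in the shortest class had a median of -0.24, beside -0.15 for all 846 genes there. The 7 actin and adhesion genes in the longest class had 0.29, beside 0.19 for all 844. The part of transcript length in the small medians of these lists was not tested.

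**Figure D5:**
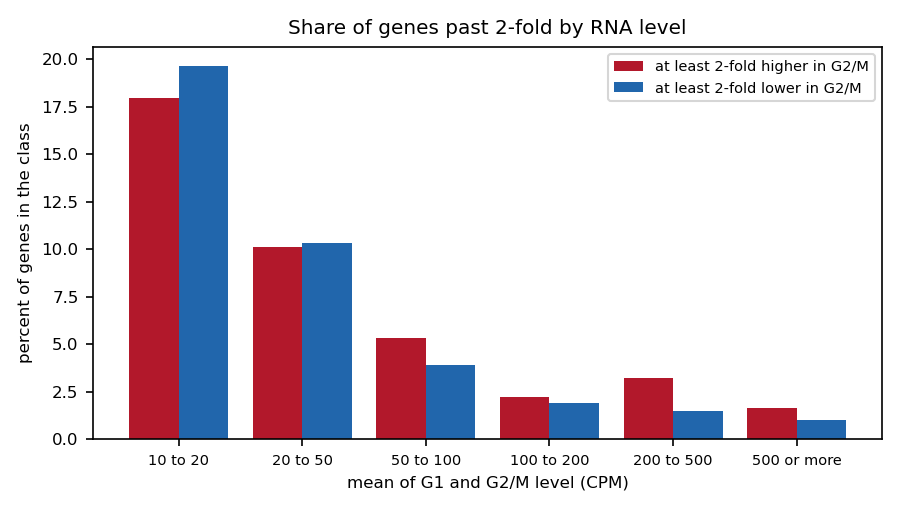
The percent of genes past 2-fold, higher and lower in G2/M, is plotted by class of mean level in CPM, with the axis starting at 0. Summed over both directions, the share past 2-fold is 37.6% at 10 to 20 CPM and 2.66% at 500 CPM or more. Genes averaging under 10 CPM are not drawn.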

How the data were processed

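RNA-seq of sorted C2C12 fractions was read as paired fragments of 101 cycles. The authors deposited raw counts per gene (featureCounts 1.5.0 after HISAT2 2.1.0, GRCm38, per the file headers and the submitters' processing notes), with Ensembl gene IDs, of which 98.0% matched a symbol. Strand use and RNA selection are not given in the sources used here. ChIP-seq samples were not analysed here. Here, the columns of a phase were summed and scaled to CPM with TMM factors (edgeR 4.0.16, R 4.3.3: 0.990 for G1, 1.01 for G2/M) from genes with at least 10 fragments in a library. Log2 ratios used a floor of 3 fragments, equal to 0.0936 CPM in G1 and 0.0827 CPM in G2/M. Intervals are exact (Clopper-Pearson), 95%, and fragments without molecular identifiers are not independent molecules. Calling was at 2-fold with 10 CPM in a phase. Medians are given for lists of at least 5 measured genes. The 36 lists, the markers and the members were chosen with earlier results of these data known, so no list is independent support. Named genes are the 12 highest and 12 lowest ratios at an average of 50 CPM or more, the 6 highest and lowest at any level, up to 5 per list and a set of cell-cycle genes; other genes named were chosen after their values were seen, and some genes within the rule are not reported here. The scripts were tested on simulated data. Alternatives were other scalings, level filters, a pseudocount, single columns and any promoter window of a gene, the last chosen after seeing the data.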

Additional observations from a re-analysis of the deposited data

How the results depend on the processing

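With library sizes alone 932 genes were called higher in G2/M and 825 lower, with DESeq2 size factors 892 and 864. The former scaling shifts every log2 ratio by 0.03 and took the chaperone median to -0.091 and that of mitochondrially encoded genes to -0.69. Counts moved with the level filter: 1210 and 1300 at 5 CPM, 592 and 562 at 20 CPM, 160 and 114 at a mean of 50 CPM and 2223 and 2295 with no minimum other than 3 fragments. Leaving out each column gave 885 to 901 higher and 851 to 871 lower. With every pairing of columns past 2-fold, the counts were 800 and 766. At a mean of 50 CPM, medians changed sign for extracellular matrix (0.060), lamina (-0.0049), H3K4 and H3K27 modifiers (-0.012) and noncoding RNAs (0.29). Those of myogenic (0.19) and histone variant genes (-0.064), close to 0 at the 10 CPM filter, changed sign too. Medians moved without a change of sign for kinetochore (1.07), cytokinesis (0.78), licensing (-0.89), polymerases (-0.73), immediate early (-0.078), p53 (-0.25), ATF4 (0.18) and actin genes (0.16). At 20 CPM they moved for matrix (0.0055, reversed), lamina (0.30), repair (-0.50), actin (0.16), myogenic (0.062, reversed) and histone variants (-0.064, reversed). At 5 CPM they moved for ATF4 (0.18), clock (-0.32), histone variants (0.19) and noncoding RNAs (-0.57). With no minimum, Notch reversed (0.0020), and ATF4 (0.18), glycolysis (0.084), clock (-0.32), histone variants (0.19) and mitochondrially encoded genes (-0.67) moved. The members that enter differ between filters. Leaving out each column gave -0.094 to 0.030 for the myogenic median, with the highest without the first G1 column, and 0.039 to 0.22 for histone variants, with the highest without the first G2/M column. The Notch median ran from -0.39 to -0.21, and those of entry genes (0.045 to 0.094), glycolysis (0.026 to 0.072), tubulins (0.016 to 0.041) and H3K4 and H3K27 modifiers (0.062 to 0.088) stayed above 0. CHR, CCAAT and E2F shares at a mean of 50 CPM were 43.7%, 59.5% and 7.1% among genes called higher. Among genes called lower, CCAAT and E2F were at 46.9% and 16.05%. With any window, CCAAT was at 49.7% and 44.2%. Lists with under 5 genes at a setting have no median there. Single genes were rerun under the other scalings, a prior of 2 fragments and a left-out column. No gene whose counting interval excludes 0 changed direction there, while genes with an interval that includes 0 were not judged for direction. This covered the 205 genes of the naming rule and not those chosen after their values were seen. No paired analysis was possible because each phase counted as 1 library and no result came from a test.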

Other observations

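Genes outside all 36 lists also differed between the fractions, and the ones below were chosen after their values were seen. Of 3621 such genes at an average of 50 CPM or more, 92 passed 2-fold upward in G2/M and 85 downward. Over all 4221 genes at that level the counts were 160 (3.79%) and 114 (2.70%), so the share called was no larger outside the lists. Among those higher, Arl6ip1, a membrane-shaping protein of the endoplasmic reticulum, was at 125.2 CPM in G1 and 484.0 CPM in G2/M (log2 ratio 1.95). The ubiquitin ligase gene G2e3 had a ratio of 2.64 and Prr11 one of 2.17. Several encode regulators of transcription and chromatin, such as the kinase gene Cdk12 (1.82), Asxl1 (1.79), the H3K36 methyltransferase gene Nsd1 (1.59) and the remodeller subunit gene Arid1b (1.38). Mdm4, a partner of MDM2 in holding p53 down, had 1.46. Among those lower were Lpcat1, an enzyme of phospholipid remodelling (154.9 and 51.9 CPM, -1.58), the transcription factor gene Klf16 (-1.48), the antiproliferative gene Tob1 (-1.32), the glycosyltransferase gene Mgat2 (-1.29) and the integrin gene Itgb5 (-1.20). None of these genes was tested, and groups of like function among them were formed by eye.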
